A study of Homo sapiens with 6 samples.

Results

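SWI/SNF and Polycomb repressive complex 2 (PRC2) are opposing chromatin machines, and the mRNAs of 38 of their subunits were followed here in ovarian clear cell carcinoma cells with and without depletion of MEX3A. The 38 genes were found by symbol in a count table of 42656 genes. They comprise 27 SWI/SNF subunits and 11 PRC2 subunits. One of them, DPF3, had only 2 to 10 raw counts per library and did not pass the low-count filter, so 37 were tested among 15679 genes.

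The cells were TOV21G, an established line from an ovarian clear cell carcinoma. All 6 libraries came from lentivirally transduced cells harvested 3 days after transduction at a multiplicity of infection of 50. The control arm (shCtrl, labelled wild type) received a scrambled hairpin and the other arm (shMEX3A, labelled MEX3A knockdown) a hairpin against MEX3A, with 3 libraries in each. Each arm rests on 1 hairpin. Nothing in the labels says that the 3 libraries of an arm are separate cultures, and the p-values below then measure only their spread, which may be technical.

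SWI/SNF complexes use the ATPase SMARCA4 or its paralog SMARCA2 to slide and evict nucleosomes. They occur in 3 forms that have subunits in common. Canonical BAF is marked by ARID1A or ARID1B and a DPF protein, and PBAF by ARID2, PBRM1, BRD7 and PHF10. Non-canonical BAF is marked by BRD9 and BICRA or BICRAL. PRC2 methylates lysine 27 of histone H3 through EZH2 or EZH1 and keeps developmental genes silent. ARID1A is among the genes most often mutated in ovarian clear cell carcinoma, and TOV21G is known as an ARID1A-mutant line that lacks the protein. In such tumours the dependence on EZH2 has been studied as the counterpart of ARID1A loss. The measurements here are of mRNA only.

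Library totals ran from 34662635 to 48228216 counts. MEX3A went from 69.0 ± 1.54 to 20.9 ± 1.31 CPM (counts scaled to a common library size with TMM factors; SD, n = 3 each), a log2 fold change of -1.72 (SE 0.046, adjusted p = 1.52e-28, edgeR). Of the clear cell carcinoma markers, PAX8 stood at 189 to 197 CPM in shCtrl and 291 to 300.1 CPM in shMEX3A (log2 fold change 0.61, adjusted p = 3.95e-20, edgeR), whereas NAPSA lay under 1 CPM in every library. The summed level of 8 fibroblast markers was 5.61 to 5.92 CPM in shCtrl and 9.04 to 11.3 CPM in shMEX3A, that of 8 leukocyte markers 7.64 to 8.72 and 10.6 to 11.1 CPM, and that of 6 endothelial markers 0.595 to 0.723 and 0.679 to 0.993 CPM. In each of these 3 lists 2 genes passed the low-count filter, and 2 leukocyte and 2 endothelial markers had 0 counts in all libraries. Their part in the results below was not tested.

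Of the 37 tested subunits, 18 were higher in shMEX3A and 13 lower at an adjusted p of 0.05 (edgeR quasi-likelihood test, adjusted over all tested genes), and 6 were not called. Most genes of this data set were called, so that count is set against its background. Of all tested genes 69.7% were called, 34.0% higher and 35.6% lower. The groups did not overlap in 32 of the 37 subunits, against 72.3% of all tested genes. A called change of at least 0.5 on the log2 scale was found in 11 subunits, against 33.2% of all tested genes. The median log2 fold change was 0.06 over the subunits and -0.01 over all tested genes. Subunits of the same complex, and paralogs of the same family, moved in opposite directions in several cases. In these bulk samples a lower level in every cell and a smaller number of cells with an mRNA cannot be told apart.

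**Figure D1:**
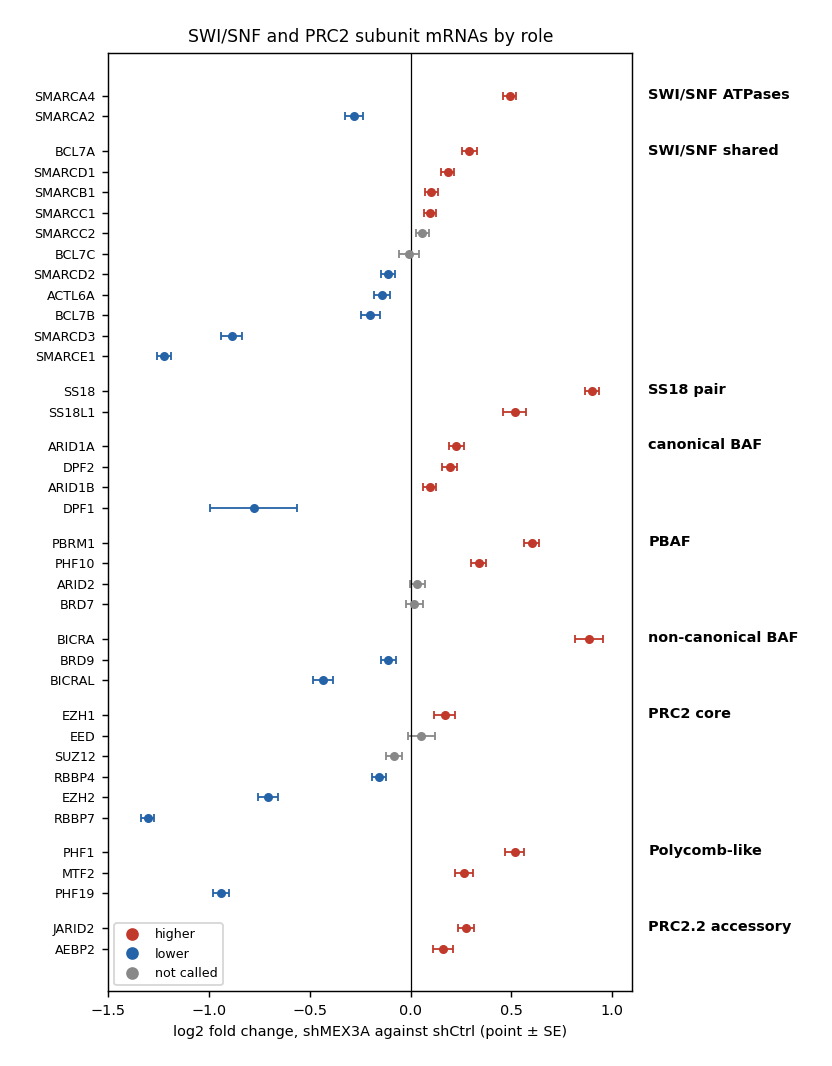
Each point is the log2 fold change of 1 subunit mRNA in shMEX3A against shCtrl with its standard error, in blocks by role; red and blue mark higher and lower calls at an adjusted p of 0.05 and grey no call. RBBP7 (-1.30) and SMARCE1 (-1.22) lie farthest to the left, and SS18 (0.90) and BICRA (0.89) farthest to the right.

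The largest falls were in RBBP7, SMARCE1 and PHF19, and the largest rise was in SS18. RBBP7 is a histone-binding protein of the PRC2 core that also serves other complexes. SMARCE1 is an HMG-box subunit of SWI/SNF, and SS18 is the subunit fused to SSX proteins in synovial sarcoma. PHF19 is a Polycomb-like protein of PRC2. EZH2, its catalytic subunit, was also lower. The promoter windows of these 5 genes (RefSeq, GRCh38.p14, 250 bases before to 50 after an annotated start, read 5′ to 3′ along the gene, all on the minus strand) are shown because they include the largest changes in each direction and the PRC2 enzyme. The genes were picked after their values were seen. Where a gene had a window with an E2F-type motif (listed below), that window is shown, and otherwise the most upstream one. EZH2 and PHF19 had 2 windows each, and theirs were thus chosen for holding the motif, which the other window lacked. The windows lie at chrX:16870313-16870612 (RBBP7), chr17:40647769-40648068 (SMARCE1), chr18:26091170-26091469 (SS18), chr7:148884242-148884541 (EZH2) and chr9:120877139-120877438 (PHF19). Capitals mark CCAAT boxes and E2F-type motifs on either strand.
RBBP7: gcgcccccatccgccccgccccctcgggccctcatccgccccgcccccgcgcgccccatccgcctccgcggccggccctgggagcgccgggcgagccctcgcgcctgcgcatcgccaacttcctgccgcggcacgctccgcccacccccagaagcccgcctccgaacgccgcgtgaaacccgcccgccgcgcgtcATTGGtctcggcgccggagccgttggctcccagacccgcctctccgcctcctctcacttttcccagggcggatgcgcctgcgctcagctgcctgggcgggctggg
SMARCE1: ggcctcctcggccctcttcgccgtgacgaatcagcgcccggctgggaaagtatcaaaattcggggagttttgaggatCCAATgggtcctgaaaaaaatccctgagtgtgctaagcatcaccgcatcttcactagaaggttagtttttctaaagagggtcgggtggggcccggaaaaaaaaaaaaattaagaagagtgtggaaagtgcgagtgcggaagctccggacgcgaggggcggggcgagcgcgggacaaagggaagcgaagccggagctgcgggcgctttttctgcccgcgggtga
SS18: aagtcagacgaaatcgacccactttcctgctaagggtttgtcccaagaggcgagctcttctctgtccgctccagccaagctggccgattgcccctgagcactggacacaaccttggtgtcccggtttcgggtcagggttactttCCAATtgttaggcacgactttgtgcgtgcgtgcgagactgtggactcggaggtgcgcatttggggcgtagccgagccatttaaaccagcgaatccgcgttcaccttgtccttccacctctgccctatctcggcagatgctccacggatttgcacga
EZH2: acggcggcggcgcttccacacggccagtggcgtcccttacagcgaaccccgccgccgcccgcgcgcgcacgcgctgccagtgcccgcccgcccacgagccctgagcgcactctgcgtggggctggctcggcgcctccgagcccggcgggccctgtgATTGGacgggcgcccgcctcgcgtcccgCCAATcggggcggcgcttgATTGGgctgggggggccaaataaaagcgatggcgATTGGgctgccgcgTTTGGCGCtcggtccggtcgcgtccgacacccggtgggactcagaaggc
PHF19: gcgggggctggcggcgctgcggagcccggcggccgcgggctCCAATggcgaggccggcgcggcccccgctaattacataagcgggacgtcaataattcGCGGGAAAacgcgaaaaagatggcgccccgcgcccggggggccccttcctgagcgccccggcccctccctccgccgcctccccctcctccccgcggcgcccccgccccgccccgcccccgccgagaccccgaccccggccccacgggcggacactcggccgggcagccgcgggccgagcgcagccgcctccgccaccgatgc

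E2F factors drive genes of S phase, and EZH2 is a known E2F target. The E2F-type motifs searched were TTTCCCGC, TTTCGCGC, TTTGCCGC and TTTGGCGC on both strands, and none of the matches overlapped a CCAAT box in the windows shown. EZH2 has TTTGGCGC starting 1 base past the annotated start, and 4 CCAAT boxes before it. PHF19 has TTTCCCGC on the opposite strand, 152 bases before the annotated start used here. Windows were found for 34 of the 38 subunits, and 7 of these 34 held an E2F-type motif, against 6.42% of 12001 tested genes with a window, where a gene could have several windows. Over single windows of this length the share was 12.5% of the 56 windows of subunits and 3.31% of all 35116. No test was made of these shares. The 7 were EZH2, EZH1, SUZ12, MTF2, PHF19 and AEBP2 of PRC2 and BRD7 of PBAF. Their fold changes differed in sign, from -0.94 for PHF19 and -0.71 for EZH2 through -0.08 for SUZ12 and 0.02 for BRD7 (neither called) to 0.16 for AEBP2, 0.17 for EZH1 and 0.26 for MTF2. A CCAAT box lay in the windows of 17 of the 34 subunits, against 42.0% of tested genes. By single windows it was 37.5% for the subunits and 34.6% for all. A match is a description of the sequence, not evidence of a bound site.

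The ATPases moved apart. SMARCA4 stood at 544, 542 and 507 CPM in shCtrl replicates 1, 2 and 3 and at 726, 768 and 746 CPM in the shMEX3A replicates, so every shMEX3A library lay above every shCtrl library. Its log2 fold change was 0.49 (SE 0.032, adjusted p = 1.47e-16, edgeR). SMARCA2, the paralog on which SMARCA4-deficient tumours come to depend, had 43.1, 42.0 and 40.9 CPM in shCtrl and 33.5, 35.8 and 34.4 CPM in shMEX3A. It fell by 0.28 on the log2 scale (SE 0.045, adjusted p = 1.05e-06, edgeR), and the groups did not overlap. Per kilobase of the principal transcript, SMARCA4 was 12.8 times as abundant as SMARCA2 in shCtrl and 21.9 times in shMEX3A. SMARCA2 made up 7.24% ± 0.139 of the pair's level per kilobase in shCtrl and 4.37% ± 0.0233 in shMEX3A (SD, n = 3).

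ARID1A and ARID1B, the alternative large DNA-binding subunits of canonical BAF, were both slightly higher. ARID1A mRNA had 56.6, 56.9 and 54.6 CPM in shCtrl and 62.6, 67.2 and 67.1 CPM in shMEX3A, with no overlap (log2 fold change 0.23, SE 0.039, adjusted p = 3.03e-06, edgeR). ARID1B had 136, 141 and 133 CPM in shCtrl and 146, 148 and 144 CPM in shMEX3A (0.10, SE 0.033, adjusted p = 0.00932, edgeR). The arms of ARID1B did not overlap either. Both values moved with the processing. With offsets for GC content and transcript length ARID1A was at -0.03 (adjusted p = 0.417) and ARID1B at -0.10 (adjusted p = 0.00224), and ARID1B lost its call once shCtrl replicate 3 was left out (adjusted p = 0.0727). Which of the pair was the more abundant per kilobase depended on the gene length. ARID1A made up 27.6% ± 0.346 of the pair in shCtrl by the principal transcript and 53.5% ± 0.431 by the union of all annotated exons.

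The DPF proteins are zinc-finger subunits of canonical BAF that read acylated histone tails. DPF2, the widely expressed one, rose by 0.19 on the log2 scale (93.4 ± 4.46 to 107 ± 3.91 CPM). DPF1, which belongs to neuronal BAF, was barely expressed, with 1.81, 1.41 and 1.47 CPM in shCtrl and 1.02, 0.892 and 0.826 CPM in shMEX3A. It fell by 0.78 (SE 0.216, adjusted p = 0.0017, edgeR), on 28 to 79 raw counts per library. DPF3 stayed untested at 0.1 ± 0.0214 and 0.144 ± 0.0999 CPM.

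Both SS18 paralogs rose. SS18 had 51.5, 52.4 and 51.7 CPM in shCtrl and 96.8, 97.8 and 95.4 CPM in shMEX3A, a 1.87-fold higher level that was tight within each arm (log2 fold change 0.90, SE 0.036, adjusted p = 6.43e-23, edgeR). SS18L1, the form found in neuronal BAF, had 19.5, 17.2 and 18.7 CPM in shCtrl and 27.3, 25.5 and 26.7 CPM in shMEX3A (0.52, SE 0.058, adjusted p = 3.81e-10, edgeR). The groups of neither gene overlapped. SS18 supplied 78.7% ± 1.24 of the pair per kilobase in shCtrl and 82.8% ± 0.611 in shMEX3A. By the union of exons its share was 70% ± 1.56 in shCtrl and 75.2% ± 0.801 in shMEX3A.

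Of 11 SWI/SNF subunits grouped here as shared, not all of which are in each form, 4 rose and 5 fell. Their median was -0.01 on the log2 scale. Of all tested genes 34.0% were higher and 35.6% lower. SMARCE1 had 191, 179 and 181 CPM in shCtrl and 75.6, 82.8 and 77.6 CPM in shMEX3A, so the highest shMEX3A library lay far below the lowest shCtrl one. It fell 2.34-fold (log2 fold change -1.22, SE 0.036, adjusted p = 1.26e-26, edgeR). SMARCE1 spans chr17:40624962-40648864 (minus strand, GRCh38, GENCODE 29), and 19.8% of its exon bases lie under exons of other genes. The scaffold subunits SMARCC1 and SMARCC2, which hold the core together, had log2 fold changes of 0.10 (adjusted p = 0.0037, edgeR) and 0.06 (adjusted p = 0.0897, edgeR, not called). SMARCC2 was called higher with a filter of 1 CPM (0.07, adjusted p = 0.0335, edgeR) and lower with GC and length offsets (-0.07, adjusted p = 0.0184, edgeR). SMARCB1, the subunit lost in rhabdoid tumours, rose by 0.10 (adjusted p = 0.00446, edgeR). It was no longer called with shCtrl replicate 3 left out (0.08, adjusted p = 0.0592), and its sign turned with GC and length offsets (-0.16, adjusted p = 8.18e-06). For SMARCB1, 17.7% of exon bases lie under exons of DERL3 on the other strand. The actin-related ACTL6A, needed in proliferating progenitors, fell by 0.14 (adjusted p = 0.00171, edgeR) and was at 0.13 with those offsets (adjusted p = 0.00114).

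The SMARCD paralogs, which link the complex to transcription factors, shifted in their mix. SMARCD3, the form known for its role in the developing heart, had 37.4, 38.8 and 37.8 CPM in shCtrl and 19.9, 21.0 and 20.6 CPM in shMEX3A, with no overlap (log2 fold change -0.89, SE 0.050, adjusted p = 2.36e-18, edgeR). SMARCD1 rose by 0.18 and SMARCD2 fell by 0.11. Per kilobase, SMARCD1 went from 37.6% ± 0.198 to 46.1% ± 0.237 of the family and SMARCD3 from 20.4% ± 0.126 to 11.9% ± 0.101. SMARCD2 held 42.0% ± 0.316 and 42.0% ± 0.150, or 46.8% ± 0.320 and 44.9% ± 0.176 by the union of exons. By that length SMARCD1 went from 41% ± 0.242 to 48.3% ± 0.229 and SMARCD3 from 12.1% ± 0.0836 to 6.78% ± 0.0605. The small BCL7 subunits also moved apart, with BCL7A at 0.29 and BCL7B at -0.20, both called, and BCL7C at -0.01 (adjusted p = 0.88, edgeR). With GC and length offsets BCL7C was called lower (-0.13, adjusted p = 0.00871, edgeR). BCL7C had 37.1 ± 2.55 CPM in shCtrl and 37.0 ± 1.48 in shMEX3A.

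**Figure D2:**
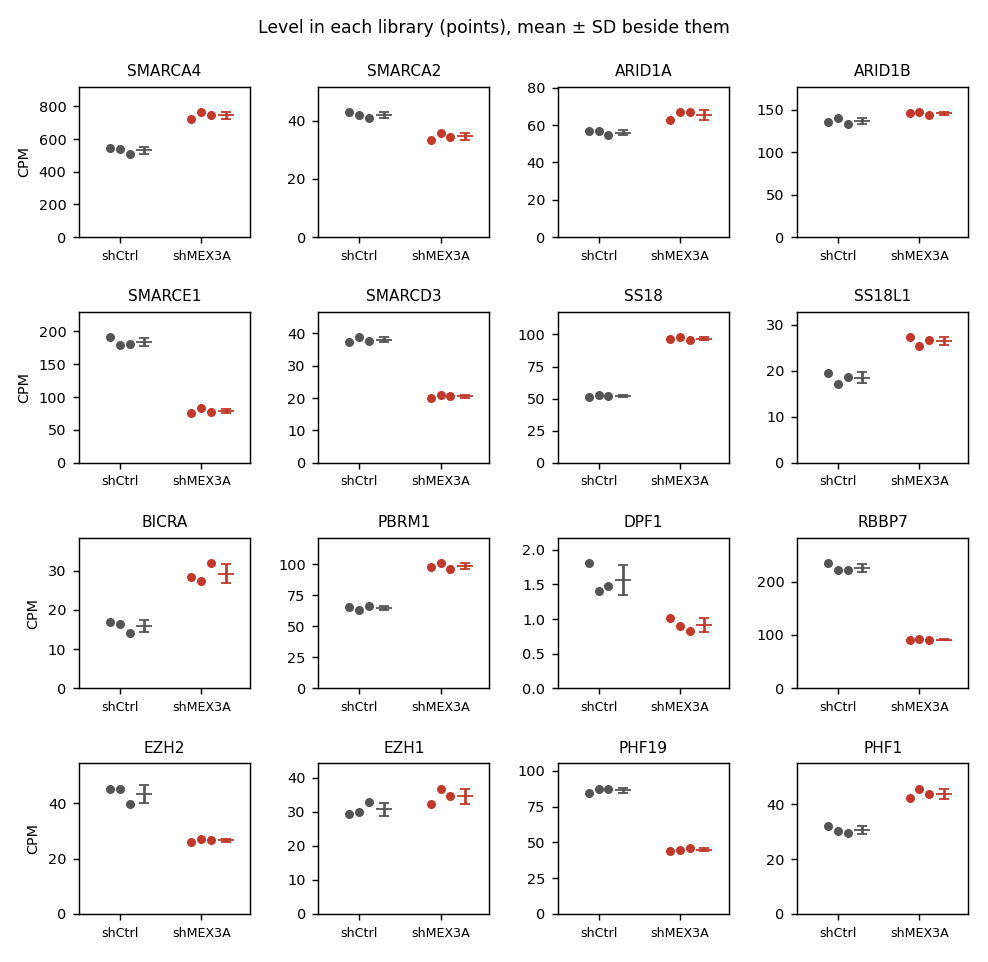
Each panel shows 1 subunit with its level in CPM on an axis from 0, the 3 libraries of each arm as points (shCtrl grey, shMEX3A red) and the mean ± SD beside them. Among the 16 genes plotted the arms overlap for EZH1 alone, and SMARCE1 and RBBP7 show the widest gaps relative to their level.

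Among the PBAF subunits 2 of 4 rose and 0 fell, against 34.0% of all tested genes higher and 35.6% lower. PBRM1, the polybromo protein often mutated in kidney clear cell carcinoma, had 65.5, 63.1 and 66.0 CPM in shCtrl and 98, 101 and 96 CPM in shMEX3A. The groups were far apart (log2 fold change 0.60, SE 0.037, adjusted p = 2.13e-17, edgeR). PHF10, a double PHD finger protein, rose by 0.34 from 51.9 ± 0.983 to 65.5 ± 1.30 CPM. ARID2 (0.03, adjusted p = 0.429, edgeR) and the bromodomain protein BRD7 (0.02, adjusted p = 0.705, edgeR) were not called. With GC and length offsets both were called higher, ARID2 at 0.10 (adjusted p = 0.00757, edgeR) and BRD7 at 0.10 (adjusted p = 0.0289, edgeR). For BRD7, 42.4% of exon bases lie under exons of other genes, ADCY7 on the other strand among them, and the strand setting of the counting is not given in the sources used here.

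The non-canonical BAF scaffolds BICRA and BICRAL moved in opposite directions. BICRA had 16.9, 16.4 and 14.0 CPM in shCtrl and 28.3, 27.4 and 32.0 CPM in shMEX3A, a 1.85-fold higher level with no overlap (log2 fold change 0.89, SE 0.068, adjusted p = 1.01e-11, edgeR). BICRAL fell by 0.43 on the log2 scale, from 33.6 ± 1.25 to 24.9 ± 0.636 CPM (SE 0.050, adjusted p = 1.08e-09, edgeR). BICRA went from 34.7% ± 1.51 to 57.1% ± 2.59 of the pair per kilobase, and so from the less to the more abundant of the pair. By the union of exons it went from 29.9% ± 1.39 to 51.7% ± 2.65. Their partner BRD9, the bromodomain subunit that defines this form, fell by 0.11 (adjusted p = 0.0113, edgeR), a call lost without shMEX3A replicate 3 (-0.08, adjusted p = 0.0921).

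In PRC2 the methyltransferases parted. EZH2, the form of dividing cells, had 45.3, 45.4 and 39.7 CPM in shCtrl and 26.0, 27.2 and 26.8 CPM in shMEX3A, so all shMEX3A libraries lay below the lowest control, shCtrl replicate 3. It fell 1.63-fold (log2 fold change -0.71, SE 0.051, adjusted p = 6.44e-15, edgeR). EZH2 spans chr7:148807383-148884321 on the minus strand. EZH1, the form that persists in resting cells, had 29.4, 30.0 and 32.9 CPM in shCtrl and 32.2, 36.8 and 34.6 CPM in shMEX3A. The groups overlapped, and EZH1 was called higher by a small margin (0.17, SE 0.053, adjusted p = 0.0053, edgeR). That call was lost without shMEX3A replicate 2 (0.12, adjusted p = 0.0792). EZH2 thus went from 71.2% ± 2.83 to 57.5% ± 1.08 of the pair per kilobase.

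Other subunits of the PRC2 core did not follow EZH2 alike. RBBP7 had 235, 222 and 221 CPM in shCtrl and 90.7, 93.1 and 90.5 CPM in shMEX3A, far apart and tight within each arm. It fell 2.47-fold, the largest change among the 37 tested subunits (log2 fold change -1.30, SE 0.033, adjusted p = 3.34e-29, edgeR). Its paralog RBBP4, like it a histone-binding WD40 protein of several chromatin complexes, fell by 0.16 (202 ± 9.72 to 181 ± 4.98 CPM). For RBBP4, 18% of exon bases lie under exons of SYNC on the other strand. RBBP7 went from 79.2% ± 1.23 to 63.2% ± 0.881 of the pair per kilobase of principal transcript. By the union of exons it went from 58.9% ± 1.80 to 39.3% ± 0.902, so which of the pair was the more abundant in shMEX3A depended on the length used. EED, which reads the methyl mark that PRC2 writes, was at 0.05 (adjusted p = 0.463, edgeR). SUZ12, the scaffold of the complex, was at -0.08 (adjusted p = 0.0689, edgeR). SUZ12 has a pseudogene copy in the table, SUZ12P1, with at most 13% of its counts. EED was called higher with GC and length offsets (0.29, adjusted p = 6.76e-05), and SUZ12 was called lower without shCtrl replicate 3 (-0.10, adjusted p = 0.043).

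The Polycomb-like proteins, which bring PRC2 to CpG islands, changed their mix. PHF19 had 84.2, 87.3 and 87.6 CPM in shCtrl and 44.1, 44.7 and 46.3 CPM in shMEX3A, a 1.92-fold lower level with no overlap (log2 fold change -0.94, SE 0.038, adjusted p = 6.36e-23, edgeR). PHF1 had 32.2, 30.4 and 29.5 CPM in shCtrl and 42.2, 45.8 and 43.8 CPM in shMEX3A (0.52, SE 0.047, adjusted p = 2.59e-12, edgeR). MTF2 rose by 0.26 from 33.2 ± 1.21 to 40.0 ± 0.203 CPM. PHF19 supplied 49.0% ± 1.47 of the family per kilobase in shCtrl and 27.1% ± 0.638 in shMEX3A, where PHF1 held the largest share at 48.1% ± 1.08. The accessory proteins of the alternative PRC2 form, JARID2 (0.27) and AEBP2 (0.16), both rose.

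Paralog ratios were compared as log2 ratios of levels per kilobase in 18 pairs, which share genes in part. In 17 pairs the libraries of the arms did not overlap, which was also so for 72.3% of all tested genes taken singly, so the count says little about paralogs. Each of these pairs gave p = 0.1 in a two-sided exact permutation test, the smallest value that 3 against 3 libraries allow (adjusted p = 0.106 over the 18 pairs). The largest shifts were in PHF1 to PHF19 (from -0.63 ± 0.09 to 0.83 ± 0.06, SD, n = 3), BICRA to BICRAL (from -0.91 ± 0.10 to 0.42 ± 0.15) and MTF2 to PHF19 (from -1.34 ± 0.08 to -0.13 ± 0.04). RBBP4 to RBBP7 followed, from -1.93 ± 0.11 to -0.78 ± 0.05. EZH2 to EZH1 went from 1.31 ± 0.20 to 0.44 ± 0.06 and SMARCA4 to SMARCA2 from 3.68 ± 0.03 to 4.45 ± 0.01. The ratio of SMARCC1 to SMARCC2, from -0.10 ± 0.04 to -0.07 ± 0.03, was the one with overlapping arms (exact permutation p = 0.2, two-sided). With GC and length offsets the SMARCA4 to SMARCA2 shift went from 0.77 to 0.43, and that of MTF2 to PHF1 from -0.25 to -0.01. In that fit BICRA was at 0.64 and BICRAL at -0.38, a smaller shift. SMARCC1 was at 0.10 and SMARCC2 at -0.07, a larger one.

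**Figure D3:**
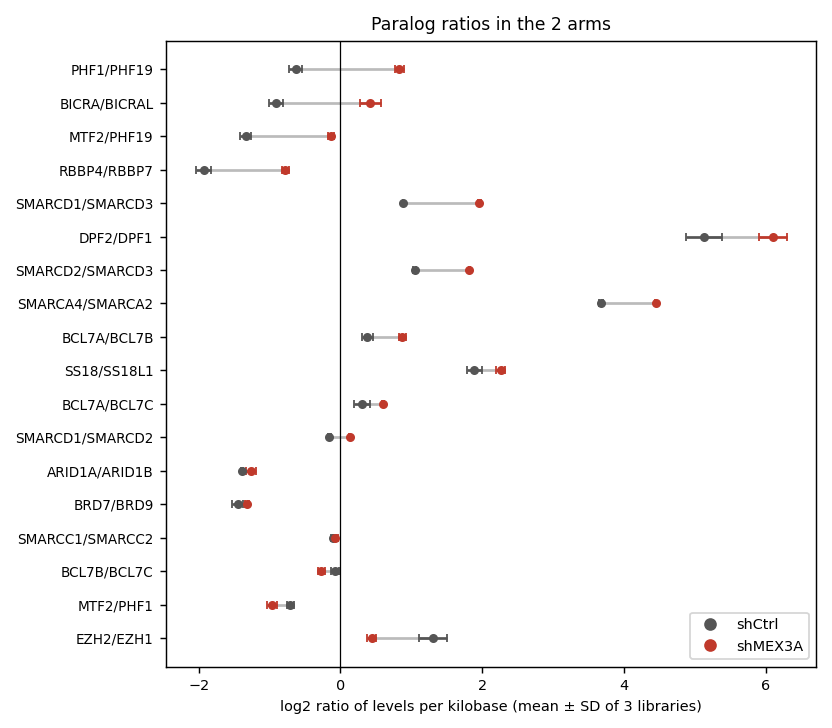
For each of 18 paralog pairs the log2 ratio of levels per kilobase is shown as mean ± SD of 3 libraries in shCtrl (grey) and shMEX3A (red), ordered by the shift. PHF1/PHF19, MTF2/PHF19, BICRA/BICRAL and RBBP4/RBBP7 have the longest shifts, and SMARCC1/SMARCC2 has nearly coincident points.

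EZH2 and PHF19 fell beside genes of the dividing cell. In the proliferation list 14 of 15 genes fell and 0 rose (median -0.60 on the log2 scale). Of all tested genes 35.6% were lower and 34.0% higher. The transcription factor E2F2 (-1.71) and the mitotic kinase CDK1 (-1.17) fell most. The summed level of the 15 genes was 1945 to 1981 CPM in shCtrl and 1287 to 1322 CPM in shMEX3A. Whether the share of dividing cells has a part in the fall of EZH2 and PHF19 was not tested.

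The counts in the other lists are likewise to be read against the 34.0% of all tested genes that were higher and the 35.6% that were lower. PRC1 compacts chromatin and ubiquitinates histone H2A, and of its 25 genes 7 rose and 13 fell (median -0.15). The chromodomain protein CBX6 (101 ± 4.72 to 251 ± 8.28 CPM, log2 fold change 1.32) and the corepressor BCORL1 (0.78) rose most, and SCML2 (-0.96) and SCML1 (-0.95) fell most. Among 7 tested genes that oppose or reverse PRC2 action, 4 rose and 1 fell (median 0.16). KDM6B, a demethylase that removes the PRC2 mark, had the largest change of all listed chromatin genes, from 75.0 ± 3.78 to 312 ± 7.37 CPM (2.05, SE 0.035, adjusted p = 5.86e-34, edgeR). BAP1, a histone H2A deubiquitinase, rose by 0.20 and the acetyltransferase EP300 fell by 0.22. BAP1 was at -0.03 with GC and length offsets (adjusted p = 0.334). Of other PRC2 accessory proteins, EPOP rose (0.59) and LCORL (-0.38) and LCOR (-0.18) fell, out of 3 tested.

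Genes reported elsewhere to be repressed by EZH2 rose in 7 of 10 cases and fell in 3, with a median of 0.44, against 34.0% of all tested genes higher and 35.6% lower. The transcription factor RUNX3 (3.42 ± 0.257 to 9.65 ± 0.645 CPM, 1.49) and PIK3IP1 (21.3 ± 0.972 to 38.3 ± 1.03 CPM, 0.84), an inhibitor of PI3K studied as an EZH2 target in ARID1A-mutant ovarian cancer, rose most. FBXO32 (-1.53), a ubiquitin ligase subunit, and the cadherin CDH1 (-1.43) fell most. The histone mark itself was not measured. The list was put together from general knowledge of other tumour cells, but with earlier results of these data known, so its counts are a description only.

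**Figure D4:**
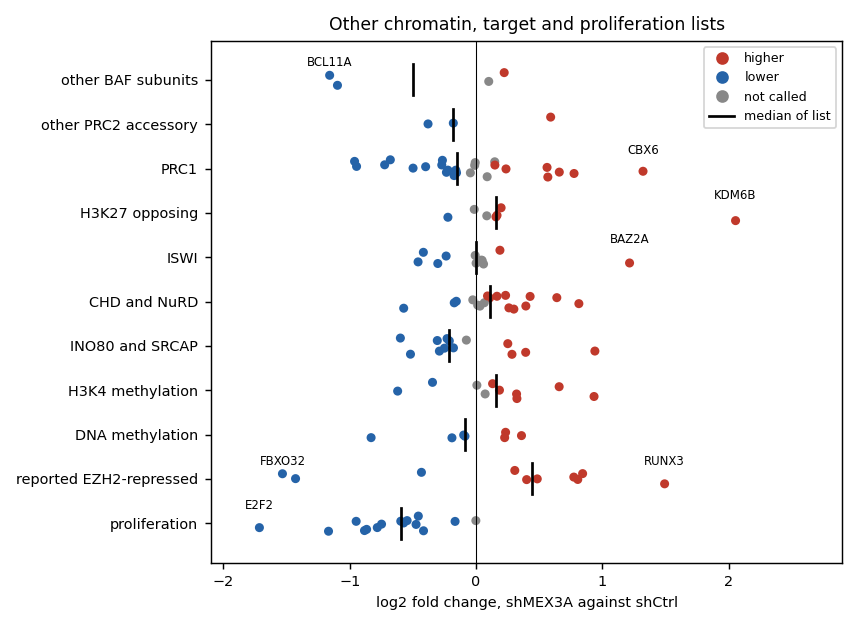
Each point is the log2 fold change of 1 gene, spread vertically within its list for visibility, with red and blue for higher and lower calls, grey for no call and a black bar for the median of the list. KDM6B (2.05) lies farthest right, and the proliferation list lies at or below 0 throughout.

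Other remodellers were mixed. Of the further BAF subunits, ACTB rose (0.22) and the zinc-finger proteins BCL11A (-1.16) and BCL11B (-1.10) fell. BCL11B lay at 0.449 ± 0.188 CPM in shCtrl, and it was no longer called when shCtrl replicate 2 (-0.76, adjusted p = 0.171), shMEX3A replicate 1 (adjusted p = 0.0572) or shMEX3A replicate 2 (adjusted p = 0.0518) was left out, or by DESeq2 (adjusted p = 0.0612). Of 11 ISWI genes 2 rose and 4 fell, with BAZ2A (1.22) and CECR2 (0.19) up and BPTF (-0.46) and the ATPase SMARCA1 (-0.42) down. Of 17 CHD and NuRD genes 10 rose and 3 fell, with MTA1 (0.81) and CHD7 (0.64) up and CHD6 (-0.57) and MBD2 (-0.17) down. Of 13 INO80 and SRCAP genes 4 rose and 8 fell, with EP400 (0.94) and VPS72 (0.39) up and RUVBL2 (-0.60) and INO80C (-0.52) down. Of 10 genes of histone H3 lysine 4 methylation 6 rose and 2 fell, with KMT2D (0.93) and KMT2B (0.66) up and ASH2L (-0.62) and DPY30 (-0.34) down. Of 7 DNA methylation genes 3 rose and 4 fell, with TET3 (0.36) and DNMT3A (0.23) up and UHRF1 (-0.83) and DNMT1 (-0.19) down. In that list 2 and not 4 genes were lower without shCtrl replicate 2, without shMEX3A replicate 3, with a filter of 1 CPM and by DESeq2. Across the 97 tested genes of these lists and of the Polycomb lists, 38 rose and 39 fell, with a median of 0.01. With GC and length offsets CECR2 (0.10, adjusted p = 0.0695), DNMT3A (0.05, adjusted p = 0.217) and DPY30 (-0.03, adjusted p = 0.714) lost their calls. In that fit 5 ISWI genes and 2 of the further BAF subunits were higher. In the mixed list with KDM6B and BAP1 2 genes were lower, as was 1 gene of lysine 4 methylation, and 1 proliferation gene was higher. Called values also moved in that fit, KMT2D to 0.52, KMT2B to 0.34, EPOP to 0.36, TET3 to 0.19, INO80C to -0.33, EP300 to -0.36 and DNMT1 to -0.37.

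Transcript GC content moved with the fold changes, with a Spearman rho of 0.19 across 14479 tested genes, which are not independent replicates. The median GC content was 50.2% in the subunits and 48.7% in all tested genes. With offsets for GC content and length, 19 subunits were higher and 16 lower. The 11 subunits past 0.5 kept their direction and call, from -1.18 for RBBP7, -1.15 for PHF19 and -1.14 for SMARCE1 to 0.64 for BICRA and 1.06 for SS18. EZH2 was at -0.57. Several called values moved by over 1.5 times. SMARCA4, with a GC content of 61.4%, went from 0.49 to 0.21, BCL7A from 0.29 to 0.15, SMARCD1 from 0.18 to 0.08, DPF2 from 0.19 to 0.12 and RBBP4 from -0.16 to -0.09, all still called. MTF2 (0.41), AEBP2 (0.28), SMARCD2 (-0.23) and BRD9 (-0.23) moved away from 0.

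**Figure D5:**
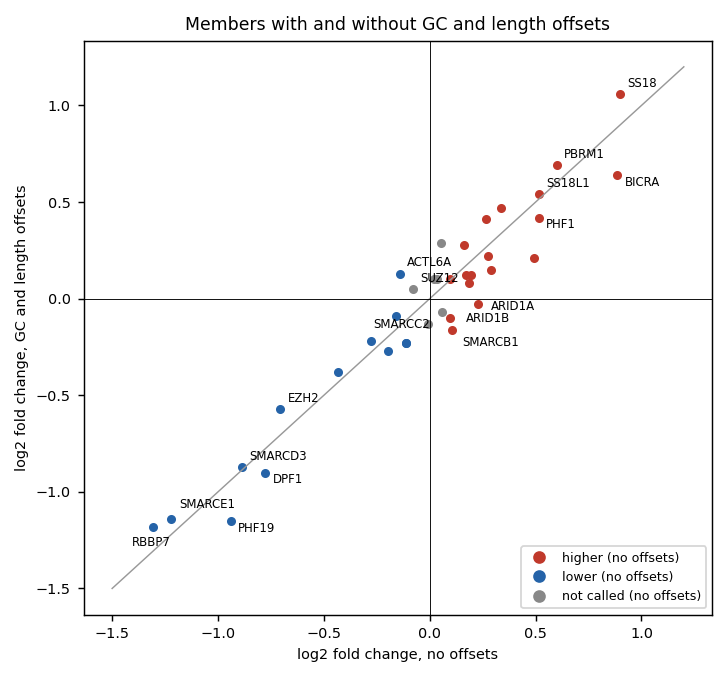
Each point is 1 of 37 subunits, with the log2 fold change without offsets on the x axis and with GC and length offsets on the y axis; the diagonal marks equal values and colours give the call without offsets. BICRA (0.89 to 0.64) and PHF19 (-0.94 to -1.15) lie off the diagonal but keep their sign, and ARID1A, ARID1B, SMARCB1, SMARCC2, ACTL6A and SUZ12 cross 0.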

How the data were processed

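RNA of 6 TOV21G libraries was sequenced, and the authors deposited their raw counts per gene, whole and not normalized, in 1 table with a column for each library. The submitters' processing notes name GRCh38, HTSeq 2.0.4, STAR, fastp 0.20.0 and edgeR 4.0.16, without their roles or order. They give neither the annotation release nor the strand setting, so reads of overlapping or antisense genes cannot be told apart.

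The tests on counts were run with edgeR 4.0.16 in R 4.3.3 (filterByExpr, TMM, robust quasi-likelihood fit over all 15679 tested genes, Benjamini-Hochberg over all of them, threshold 0.05). Standard errors were derived from the F statistics. Levels are TMM-scaled CPM, and levels per kilobase divide by the longest APPRIS principal transcript of GENCODE 29. Paralog ratios were tested in Python 3.11.15 with scipy 1.17.1. Within an arm, libraries differed by more than sampling noise (chi-square per degree of freedom 2.69 to 6.15). The fit was checked on simulated data in which few genes changed and all shared a single dispersion. Most genes were called here, and the check does not cover that setting.

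The members and gene lists were chosen with earlier results of these data known. By the naming rule, library values are given for called members with a log2 fold change of at least 0.5 in size and for ARID1A, ARID1B, SMARCA2, SMARCA4, EZH1 and EZH2, and in each other list up to 2 called genes in each direction are named. Alternatives were DESeq2 1.42.0 and its size factors, upper-quartile factors, no filter, a filter of 1 CPM in 3 libraries, voom in limma 3.58.1, a replicate block, removal of mitochondrially encoded genes, GC and length offsets (splines with 5 degrees of freedom), and each library left out. Offsets on paralog ratios and lengths from the union of exons were added after seeing the data.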

Additional observations from a re-analysis of the deposited data

How the results depend on the processing

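Under all alternatives the called counts stayed within 1.5 times of those reported, for all genes and for the subunits. The 16 subunits with values per library kept their direction under each of them, apart from ARID1A (-0.03) and ARID1B (-0.10) with GC and length offsets. Those offsets also turned the sign of SMARCB1 (-0.16), SMARCC2 (-0.07), ACTL6A (0.13), SUZ12 (0.05) and BAP1 (-0.03). BCL7C was called lower with those offsets (-0.13) and ARID2 (0.10), BRD7 (0.10) and EED (0.29) higher. Otherwise BCL7C was not called, and was at 0.00 with DESeq2 size factors and the DESeq2 test, at 0.01 with a filter of 1 CPM, and between -0.07 and 0.02 with 1 library left out. BRD7 ranged from -0.02 to 0.06 with 1 library left out. SMARCC2 was called higher with a filter of 1 CPM (0.07, adjusted p = 0.0335, edgeR) and lower with those offsets (adjusted p = 0.0184). The cause of these changes was not tested. With 1 library left out, 16 to 18 subunits were higher and 12 to 14 lower. MEX3A ranged from -1.68 to -1.77 with 1 library left out, and the pairs of paralogs with no overlap from 17 to 18. Equal replicate numbers showed no clear pairing of the arms. Deviations from the arm means correlated at -0.0309, 0.0772 and -0.0769 for equal numbers. The best partner of a library had its own number in 2 of 6 cases. With so few libraries this cannot exclude pairing. In the fit with the replicate block 18 subunits were higher and 13 lower, and 10751 genes were called. Of the values for subunits under alternatives, 531 kept direction and side of the threshold, 4 lost the call and 6 gained it with the direction kept, and 14 changed sign, where ARID1A also lost its call and SMARCC2 gained one. DPF1 and DPF3 are limited by their low counts.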
